A study of Mus musculus with 8 samples.

Results

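Chromatin accessibility was examined around 10 genes of MHC antigen presentation: Ciita, Cd74, H2-Aa, H2-Ab1 and H2-Eb1 for class II, and Tap1, Psmb8, Psmb9, B2m and Nlrc5 for the class I machinery. Accessible regions were assigned to them when the summit of a peak lay within 50 kb of the gene's span on mm10, and overlapping peaks of all libraries were merged. The windows held 722 peaks in 128 merged regions, out of 76751 regions in the whole data set. Because several members are neighbours, 38 regions lay in the windows of more than 1 gene and 6 in windows of both classes. By nearest member gene, 66 regions belonged to the class II genes and 62 to the class I machinery. This split follows the members only. Of the regions assigned to Psmb9, 2 were nearest to H2-DMa, 6 to H2-DMb1 and 2 to H2-DMb2, which are class II pathway genes. The count per gene was 30 for Nlrc5, 20 for Ciita, 19 for Cd74, 14 for B2m, 13 for H2-Eb1, 11 for Psmb9, 10 for H2-Ab1, 5 for Psmb8, 4 for H2-Aa and 2 for Tap1.

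The libraries were ATAC-seq of mouse bone-marrow-derived macrophages, in which a transposase inserts sequencing adapters into open DNA. Bone marrow cells were cultured for 7 days and were wild type (WT) or Lamin-A KO (KO), the latter lacking a protein of the nuclear lamina. In each genotype the cells were untreated or activated with lipopolysaccharide (LPS, a bacterial cell wall component) for 6 h, which gave 4 groups of 2 libraries each. The study asked what LPS does to chromatin accessibility and what part Lamin-A has in it. All 8 libraries were made from cells that had been frozen in 5% DMSO and thawed. The LPS dose, the Lamin-A allele, the age and sex of the mice and whether the libraries of a group came from separate animals are not given in the sources used here, so p-values measure the spread between these libraries, which may be technical.

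MHC class II molecules show peptides from engulfed material to CD4+ T cells and are made mainly by professional antigen-presenting cells. Their genes are switched on by CIITA, a coactivator that binds no DNA itself but sits on RFX, CREB and NF-Y proteins at the X and Y boxes of class II promoters. MHC class I molecules show peptides from inside the cell to CD8+ T cells. Those peptides are cut by the immunoproteasome, carried by the TAP transporter and loaded onto a heavy chain paired with B2m, and NLRC5 is the class I counterpart of CIITA. In macrophages interferon gamma is the classical inducer of both arms, and LPS acts on them partly through type I interferon.

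The macrophage label was checked at gene ends. Peaks lay within 1 kb of an end of all 10 macrophage genes of the marker list (Adgre1, Csf1r, Cd68, Itgam, Lyz2, Mertk, Fcgr1, Cd14, Spi1 and Cebpa) in every library. Of 6 B cell genes, 0 to 2 had such a peak in a library, and Cd79a, Cd79b, Ms4a1 and Pax5 had none in any. Blk had one in untreated WT replicate 2, both WT libraries with LPS and both untreated KO libraries, at 5.51 to 7.04. Ebf1 had one only in untreated WT replicate 2, at 4.53. Of 7 dendritic cell genes, 1 or 2 did, with Xcr1 marked in all 8 libraries, Flt3 in 3, and Zbtb46, Clec9a, Siglech, Ccr7 and Cd209a in none. In whole-culture libraries, fewer cells with an open region and less opening per cell cannot be told apart.

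The promoters of 4 member genes are printed here. They carry sequence elements that the class II and class I regulators are known to use. Peaks of all 8 libraries overlapped them, and also the promoters of Psmb8 and Psmb9, which are not printed. Each is the 200 bases before the RefSeq start site on mm10, 5′ to 3′ on the gene's strand, with motif matches in capitals. H2-Aa encodes the alpha chain and H2-Eb1 a beta chain of class II molecules, Tap1 encodes a subunit of the peptide transporter, and B2m encodes the class I light chain.
H2-Aa, chr17:34287824-34288023, minus strand: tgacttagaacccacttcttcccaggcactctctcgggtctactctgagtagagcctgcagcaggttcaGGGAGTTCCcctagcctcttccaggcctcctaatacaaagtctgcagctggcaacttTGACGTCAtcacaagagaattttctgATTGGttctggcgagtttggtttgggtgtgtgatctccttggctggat
H2-Eb1, chr17:34305667-34305866, plus strand: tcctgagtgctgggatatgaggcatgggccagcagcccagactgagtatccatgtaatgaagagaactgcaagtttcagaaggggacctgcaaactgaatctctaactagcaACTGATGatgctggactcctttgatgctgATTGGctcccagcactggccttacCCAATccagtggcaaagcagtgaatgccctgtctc
Tap1, chr17:34187356-34187555, plus strand: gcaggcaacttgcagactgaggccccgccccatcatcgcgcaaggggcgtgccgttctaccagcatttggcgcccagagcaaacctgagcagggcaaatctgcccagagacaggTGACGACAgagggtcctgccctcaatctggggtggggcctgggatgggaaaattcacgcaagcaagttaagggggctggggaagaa
B2m, chr2:122147487-122147686, plus strand: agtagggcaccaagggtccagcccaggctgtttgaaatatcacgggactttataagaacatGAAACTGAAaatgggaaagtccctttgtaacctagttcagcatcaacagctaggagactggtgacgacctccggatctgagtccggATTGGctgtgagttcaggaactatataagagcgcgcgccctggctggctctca

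The H2-Aa promoter held the NF-kB pattern GGGANTTCC, the X2 box pattern TGNNGTCA and, on the other strand, the Y box core CCAAT. In H2-Eb1 the capitals mark the X1 box core ACNGATG and CCAAT on both strands. The Tap1 promoter, which overlaps that of the neighbouring Psmb9 on the opposite strand, held TGNNGTCA on its minus strand. In B2m they mark the interferon response pattern GAAANNGAA and CCAAT on the other strand. Searched on both strands of the same stretch, these patterns occurred in 1.2% (GGGANTTCC), 13.2% (TGNNGTCA), 29.3% (CCAAT), 6.52% (ACNGATG) and 5.56% (GAAANNGAA) of 32817 RefSeq promoters. The other patterns searched were TTCNNNGAA, TGCGTCA and GAGGAAG, none of which was in these 4 promoters. The Psmb8 promoter held TTCNNNGAA, found in 5.48% of RefSeq promoters, and that of Psmb9 held CCAAT and TGNNGTCA. The peak summits of the 8 libraries lay 77 to 116 bp before the H2-Aa start site, 36 to 79 bp before that of H2-Eb1 and 90 to 114 bp before that of B2m, so each summit fell within the printed stretch. In Tap1 they ranged from 118 bp before to 70 bp after the start site.

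Each list was the authors' own peak calling of 1 library, and each peak's strength is their fold enrichment over local background. The lists held 44504 to 59750 peaks, and those of the KO libraries were shorter than every WT list. Because fold enrichment is a ratio within 1 library and list lengths differ, strength was compared through ranks: the 30960 regions held by all 8 libraries were ranked by fold enrichment in each library, and a region's percentile below is its place in that order, 0 being weakest. Median fold enrichment over these regions was 10.6 and 10.5 in untreated WT and 9.81 and 9.32 in WT with LPS. In KO it was 9.34 and 10.0 untreated and 9.06 and 8.24 with LPS. Fold enrichments below are not corrected for this. A gained region had a peak in the pair of libraries of the first-named group and in none of the other pair; for a lost region the roles were swapped. Lack of a peak says that none was listed there, not that the DNA was closed.

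Of the 128 regions, 58 (45.3%) were in all 8 libraries, against 40.3% of all regions. The share was 54.5% for the class II genes (36 of 66) and 35.5% for the class I machinery (22 of 62). Another 33 were gained or lost in at least 1 comparison. The remaining 37 were neither, 15 of them in 1 library only, 14 in 2 to 6 libraries and 8 in 7. A member was the nearest gene for 51 of the 128 regions, and 30 lay inside a member's span. Within 1 kb of a member's end lay 13, and 20 lay within 1 kb of an end of some other gene.

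**Figure D1:**
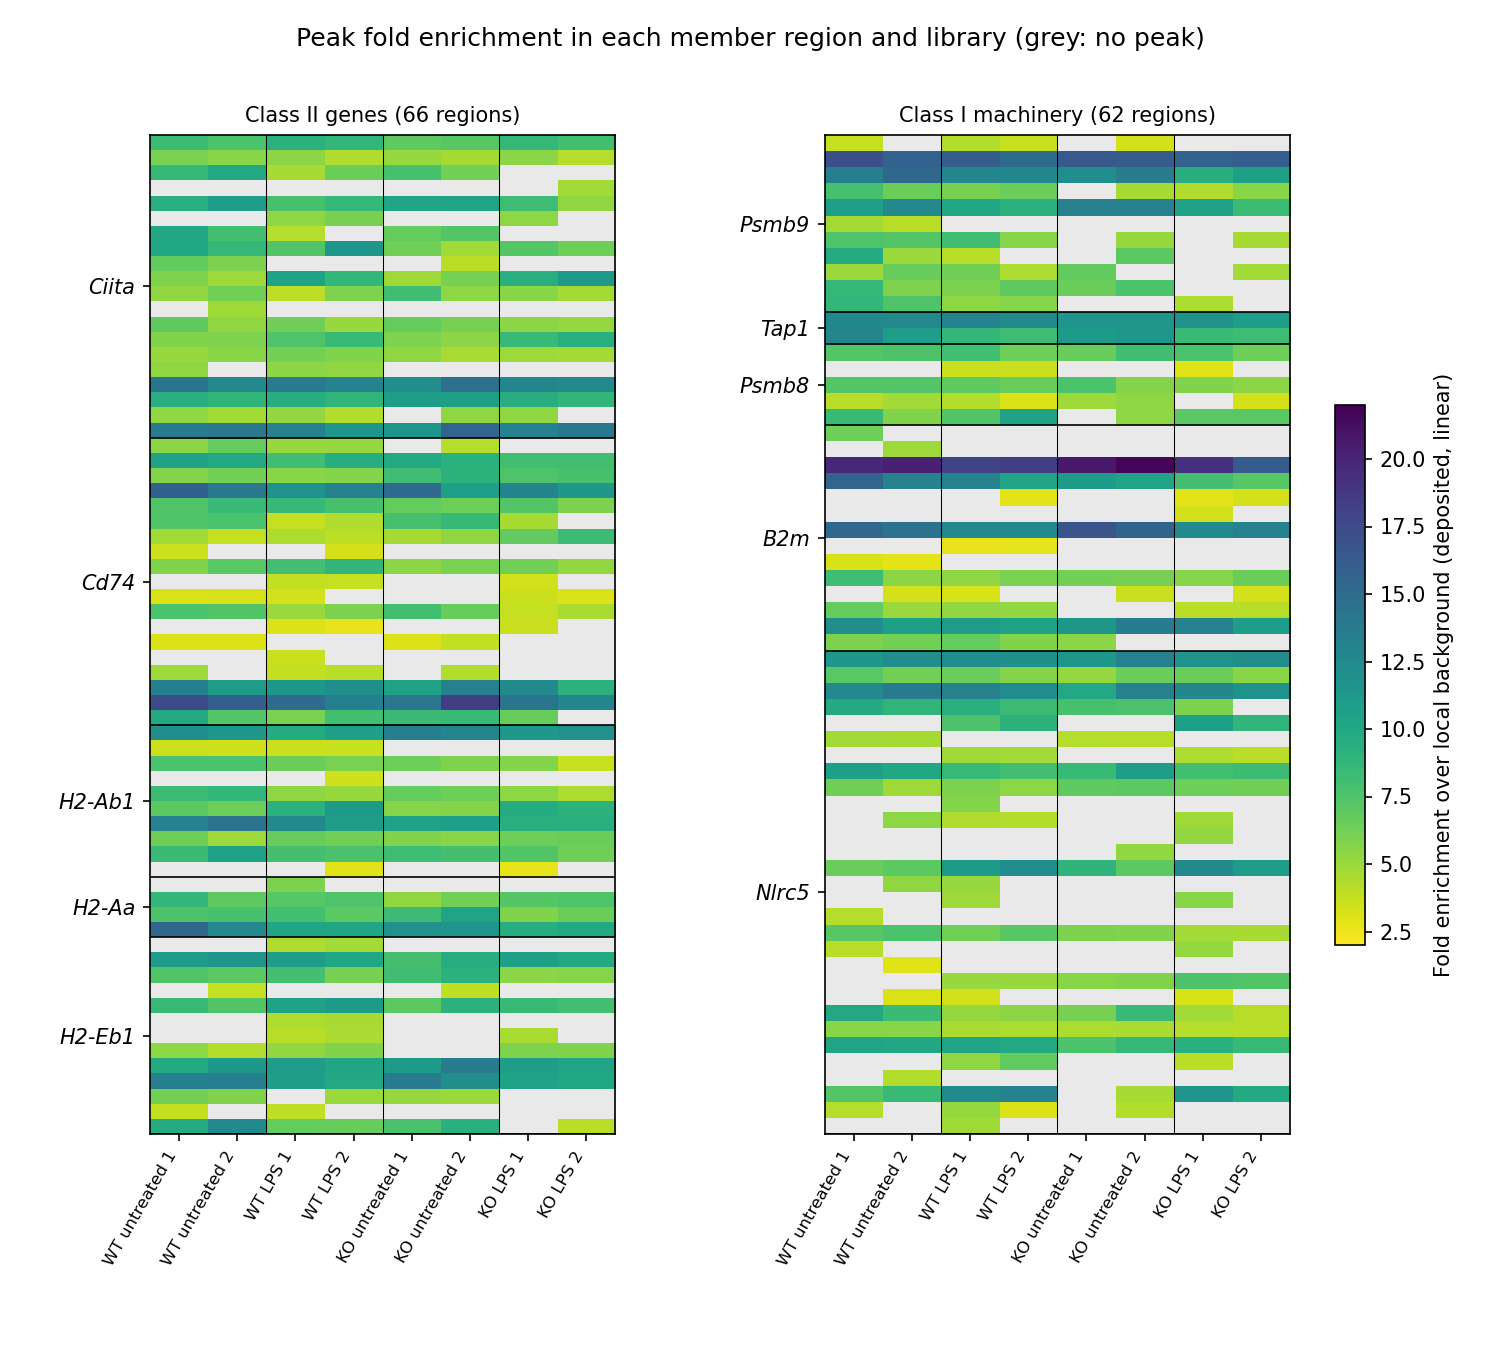
Fold enrichment of the peak in each of the 128 regions (rows, in genome order within each gene) and each of the 8 libraries (columns), for the class II genes on the left and the class I machinery on the right. Grey marks a library with no peak, and the strongest region in every library is the B2m region inside Spg11, at 16.2 to 21.7.

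Among the regions assigned to each gene, the strongest usually lay at another gene. B2m's lay inside Spg11, 29.3 kb from B2m and 1.0 kb from an end of Spg11, with a mean fold enrichment of 19.2. Psmb9's lay inside H2-DMa, which encodes a chain of the class II peptide exchanger, at 16.0. Cd74's was at an end of Tcof1, at 15.2, Ciita's lay in Clec16a, at 13.4, and Nlrc5's lay near Herpud1, at 12.4. Those of H2-Ab1 and H2-Eb1 were nearest to H2-Ob and H2-Eb2, both at 11.7, and that of Psmb8 lay inside Tap2, at 7.4. For Tap1 (12.1) and H2-Aa (11.4) the member itself was the nearest gene.

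Regions at the members' own ends differed in strength, the strongest being at B2m and between Tap1 and Psmb9. The B2m promoter region, chr2:122147309-122148084, had fold enrichments of 15.3 and 14.5 in untreated WT, 12.6 and 12.5 in WT with LPS, 16.7 and 15.6 in untreated KO, and 12.5 and 13.1 in KO with LPS. The region shared by Tap1 and Psmb9, chr17:34186977-34187992, stood at 12.7 and 12.6, then 13.0 and 12.5, then 11.6 and 11.6, then 11.7 and 10.9 in the same order. Their lowest percentiles in any library were 71.7 for B2m and 62.1 for the shared region. The means were 9.12 at the lower end of Nlrc5, 8.04 at H2-Ab1, 7.28 at Psmb8, 7.12 at the H2-Eb1 promoter and 7.09 at H2-Aa. Their highest percentiles in any library were 56.7 for Nlrc5, 49.9 for H2-Ab1, 36.4 for Psmb8, 42.9 for the H2-Eb1 promoter and 42.9 for H2-Aa. A second H2-Eb1 region, 0.9 kb before the span and in all 8 libraries, was stronger, with a mean of 10.2 and percentiles of 36.8 to 64.0. At the end of Tap1 toward Psmb8 the mean was 10.0. Ciita had 0 regions within 1 kb of its ends. The end of Cd74 was barely called: 5 libraries held a region there, at 3.05 and 3.18 in untreated WT, 3.36 in 1 WT library with LPS, and 3.6 and 3.08 in KO with LPS.

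LPS raised regions inside the genes for both regulators, Ciita and Nlrc5, and a region beside H2-Ab1, in both genotypes. Shifts were tested with limma on the normal score of the rank over all 30960 common regions, and p-values were adjusted by Benjamini-Hochberg over all of them. Of the 58 member regions tested, 4 rose in both genotypes, 3 of 36 for class II genes and 1 of 22 for class I. In both genotypes 1 class I region fell. The background was 5.33% of common regions higher in both and 4.41% lower in both.

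Ciita lies at chr16:10480014-10531064. Its region chr16:10486743-10487129, 6.9 kb inside the span from the lower end, had fold enrichments of 5.83 and 4.94 in untreated WT, 10.4 and 8.73 in WT with LPS, 4.83 and 6.14 in untreated KO, and 9.45 and 11.2 in KO with LPS. Every LPS library was above every untreated library of either genotype. Its percentile went from 10.3 and 5.36 to 54.4 and 44.6 in WT and from 6.5 and 15.1 to 53.2 and 74.0 in KO. The rank score rose by 1.43 (SE 0.25, adjusted p = 0.00363, limma) in WT and by 1.64 (SE 0.25, adjusted p = 0.00142, limma) in KO. Both calls were past the threshold in every fit that left out 1 library. Exons and introns were not resolved, because the gene table used here gives whole spans.

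A second Ciita region, chr16:10498107-10498542, 18.3 kb inside the span, moved the same way. It stood at 5.82 and 5.85 in untreated WT, 7.54 and 8.42 in WT with LPS, 5.89 and 5.5 in untreated KO, and 8.44 and 9.46 in KO with LPS. The LPS and untreated libraries again did not overlap. The rank score rose by 1.22 (SE 0.22, adjusted p = 0.00335, limma) in KO, which held without any 1 library. In WT it rose by 0.86 (SE 0.22, adjusted p = 0.022), a call that ended without untreated replicate 1 (0.117), untreated replicate 2 (0.105) or LPS replicate 2 (0.162).

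Elsewhere around Ciita the pattern was mixed. A region 46.4 kb outside the span, inside Tvp23a, had a rank score 0.59 higher with LPS in KO (SE 0.18, adjusted p = 0.0406, limma), and this ended in every fit that left out 1 library (0.0566 to 0.14). A region 19.6 kb outside the span, nearest to Tvp23a, was gained with LPS in WT at 5.36 and 6.12, and 1 KO library with LPS held it too. One 2.6 kb inside the span was lost with LPS in WT, from 6.78 and 5.98. Both regions lost with LPS in KO, 38.4 and 18.6 kb outside the span, were still held by at least 1 WT library with LPS. A region 8.0 kb from the upper end of the span was held by both WT libraries with LPS, at 5.49 and 5.3, and by 1 untreated WT library, at 5.33, and by no KO library.

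Nlrc5, at chr8:94434335-94527272, had the longest span, at 92.9 kb, and the most regions. With LPS 4 of its 30 regions were gained in WT and 2 in KO, beside 10.1% and 8.03% of all regions. B2m also had 2 gained in KO. Region chr8:94458465-94459000, 24.4 kb inside the span, had fold enrichments of 6.58 and 7.04 in untreated WT, 11.1 and 12.3 in WT with LPS, 9.03 and 7.03 in untreated KO, and 12.5 and 11.0 in KO with LPS. The lowest LPS library was above the highest untreated one. The rank score rose by 1.38 (SE 0.24, adjusted p = 0.00342, limma) in WT, which held without any 1 library. In KO it rose by 1.03 (SE 0.24, adjusted p = 0.0118), a call that ended without untreated replicate 2 (0.0973), LPS replicate 1 (0.0572) or LPS replicate 2 (0.0559).

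Just outside the lower end of Nlrc5 lay the only member regions gained with LPS in both genotypes. Region chr8:94427952-94428394, 6.2 kb outside the span, was in no untreated library and had fold enrichments of 7.58 and 9.12 in WT and 10.6 and 8.86 in KO with LPS. That placed it at percentiles of 53.5 to 75.1 of the whole lists. Region chr8:94433334-94433927, 785 bp outside the span, was likewise in no untreated library and stood at 4.83 and 4.77 in WT and 4.45 and 4.04 in KO with LPS. Between them, 4.8 kb outside the span, a region was lost in both genotypes, from 4.79 and 4.67 in WT and 4.19 and 4.14 in KO. The adjoining region at the gene's end itself was in all 8 libraries at 7.97 to 10.9, with no call.

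**Figure D2:**
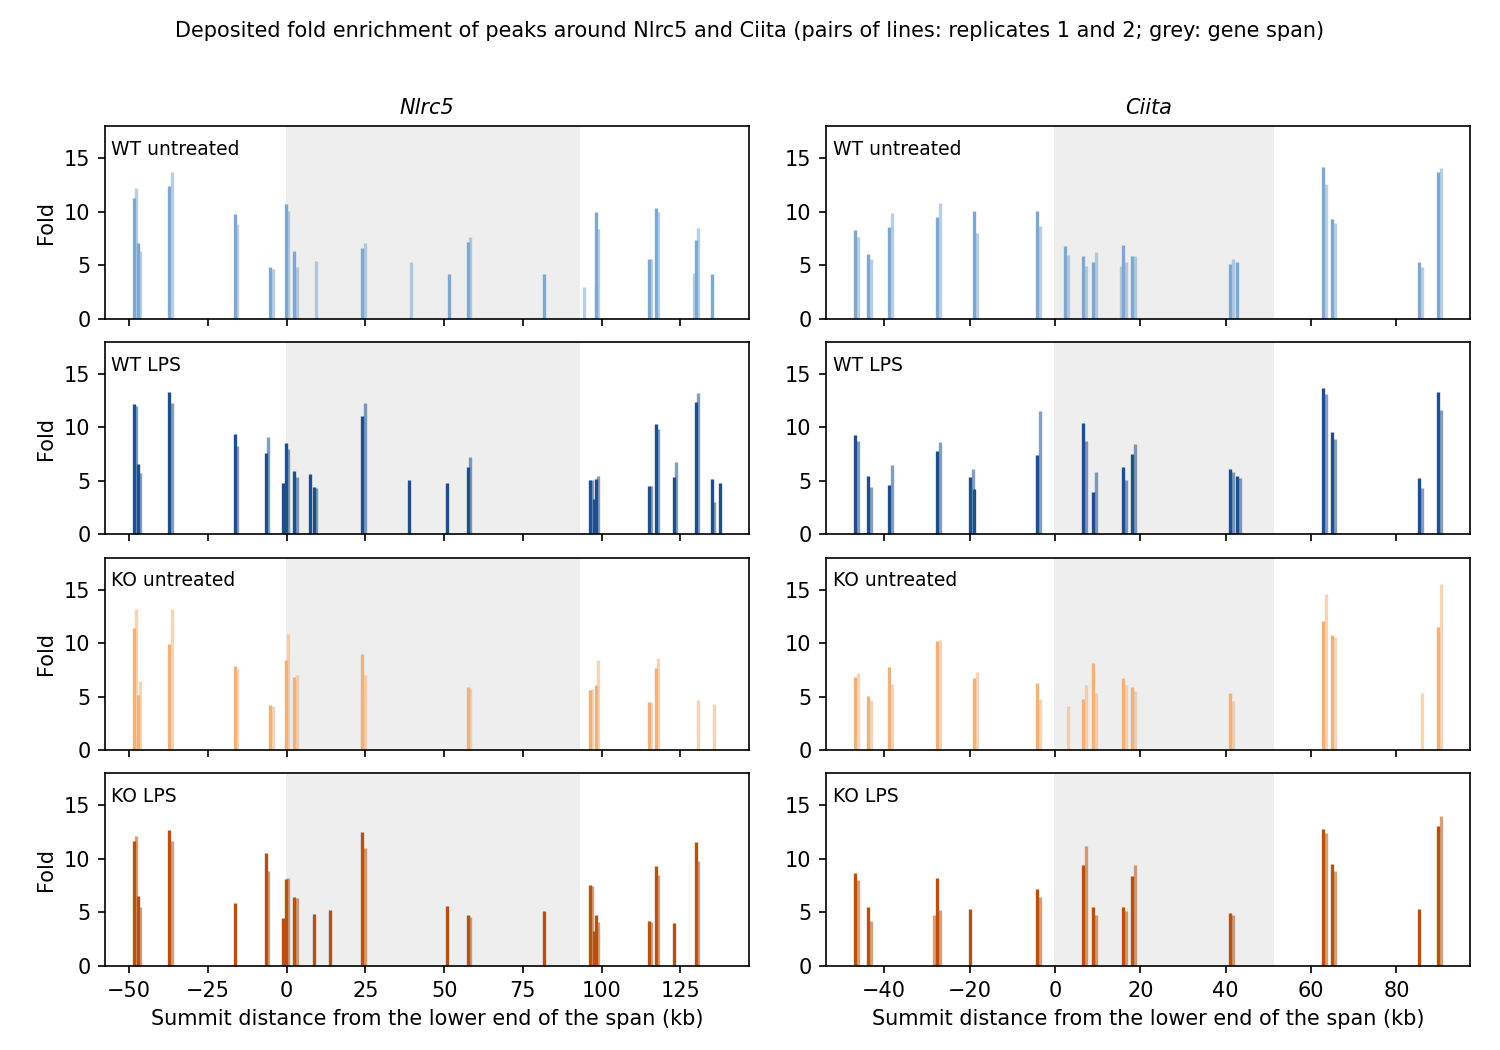
Fold enrichment of each peak (vertical lines, linear axis) against the distance of its summit in kb from the lower end of the span of Nlrc5 (left) and Ciita (right), with 1 row per group and lines side by side for replicates 1 and 2. Grey marks the gene span; the lines at 24.4 kb in Nlrc5 and at 6.9 and 18.3 kb in Ciita are higher in the LPS rows, and the line 6.2 kb before Nlrc5 appears only there.

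On the far side of Nlrc5, toward Cpne2, both directions occurred. Region chr8:94532745-94533345, 5.7 kb outside the span and 0.3 kb from an end of Cpne2, stood at 9.92 and 8.4 in untreated WT, 5.19 and 5.49 in WT with LPS, 6.09 and 8.46 in untreated KO, and 4.76 and 4.13 in KO with LPS. Its rank score fell by 0.97 (SE 0.24, adjusted p = 0.018, limma) in WT and fell by 0.95 (SE 0.24, adjusted p = 0.017) in KO. Ranked by the deposited -log10 p instead, neither call remained (adjusted p = 0.0556 in WT and 0.0707 in KO), and leaving out single libraries also ended them (up to 0.137 in WT and 0.131 in KO). A region 3.6 kb outside the span was in every library but the untreated WT pair, at 5.12 and 5.08 in WT with LPS, 5.58 and 5.75 in untreated KO, and 7.57 and 7.45 in KO with LPS. It was therefore gained with LPS in WT and gained in untreated KO against untreated WT. A region 30.2 kb outside the span was gained with LPS in WT at 5.33 and 6.81, and 1 KO library with LPS held it at 4.04.

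The class II structural genes lie together on chromosome 17, and their region called with LPS in both genotypes was between H2-Ob and H2-Ab1. H2-Ab1 encodes the beta chain of I-A, and H2-Ob encodes a chain of H2-O, which restrains peptide exchange on class II. Region chr17:34249802-34250679, 12.9 kb outside H2-Ab1 and 4.5 kb from an end of H2-Ob, had fold enrichments of 7.0 and 6.42 in untreated WT, 9.25 and 11.1 in WT with LPS, 5.66 and 5.74 in untreated KO, and 9.65 and 9.05 in KO with LPS. All 4 LPS values were above all 4 untreated values. The rank score rose by 1.31 (SE 0.21, adjusted p = 0.00195, limma) in KO, which held without any 1 library. In WT it rose by 1.10 (SE 0.21, adjusted p = 0.00595), which ended without untreated replicate 2 (0.0556) or LPS replicate 2 (0.0615).

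By -log10 p the same region moved further, from percentiles of 8.0 and 6.38 to 70.0 and 85.6 in WT and from 4.17 and 3.4 to 71.5 and 75.9 in KO. Its neighbour chr17:34248770-34249132, 3.0 kb from an end of H2-Ob, went the other way by fold enrichment, from 8.31 and 8.79 to 5.29 and 5.11 in WT. Its rank score fell by 0.90 (SE 0.20, adjusted p = 0.0118, limma) in WT, but by -log10 p its percentile went from 15.9 and 21.4 to 25.4 and 29.2, so its direction depends on which deposited value is ranked. The call also ended without any 1 of the 4 WT libraries (0.0537 to 0.0821). At the H2-Ab1 promoter, 8.34 and 10.5 in untreated WT stood beside 7.9 and 7.71 with LPS, and 8.2 and 7.89 in untreated KO beside 7.45 and 6.31, with no call.

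**Figure D3:**
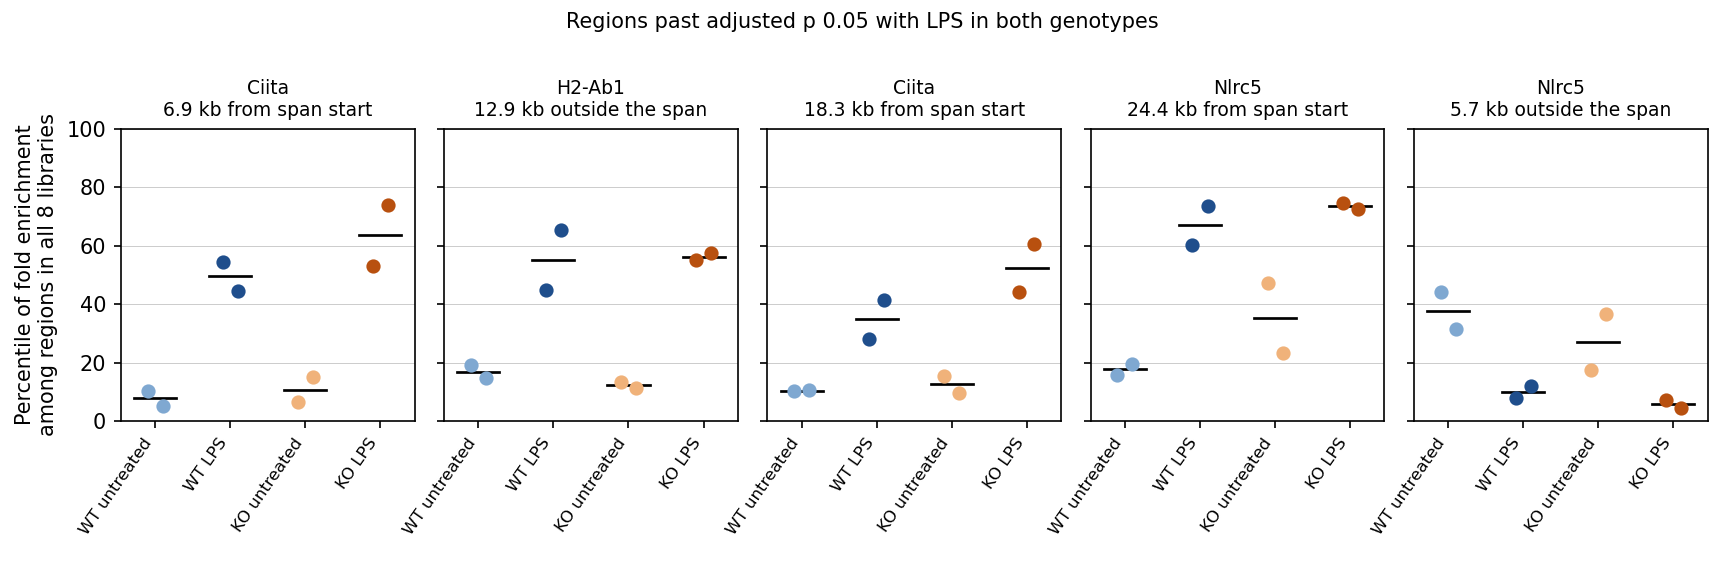
Percentile of fold enrichment among the 30960 regions held by all 8 libraries, for the 5 member regions past an adjusted p of 0.05 with LPS in both genotypes (points are libraries, bars group means). In the first 4 panels the LPS points of each genotype lie above its untreated points; in the last, near Cpne2, they lie below.

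Of the promoters shown above, those of H2-Aa and H2-Eb1 had calls with LPS in KO, in opposite directions. The H2-Aa promoter region, chr17:34287732-34288092, stood at 8.73 and 6.95 in untreated WT, 7.17 and 7.5 in WT with LPS, 5.32 and 6.23 in untreated KO, and 7.28 and 7.53 in KO with LPS. The LPS libraries were above the untreated ones in KO, while in WT they overlapped. The rank score rose by 0.82 (SE 0.22, adjusted p = 0.0249, limma) in KO, a call that ended without untreated replicate 1 (0.154), untreated replicate 2 (0.0516) or LPS replicate 2 (0.137). The H2-Eb1 promoter region, chr17:34305634-34306011, stood at 7.4 and 7.02, 7.97 and 6.13, 8.15 and 9.16, and 5.5 and 5.64 in the same order. Its rank score fell by 0.74 (SE 0.21, adjusted p = 0.03) in KO, which ended when ranked by -log10 p (0.26) and without any 1 of the 4 KO libraries (0.0688 to 0.152). Neither promoter had an LPS by genotype difference past the threshold. The strongest H2-Aa region, 8.5 kb outside the span on the promoter side, stood at 15.4 and 12.6 in untreated WT, 10.2 and 10.2 in WT with LPS, 11.9 and 11.6 in untreated KO, and 9.53 and 9.91 in KO with LPS. Its LPS fold enrichments were below its untreated ones in both genotypes, with no call. By percentile the KO libraries overlapped, at 70.2 and 61.6 untreated and 54.0 and 64.4 with LPS.

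Within H2-Eb1, region chr17:34313378-34313867, 3.0 kb from the upper end, stood at 8.41 and 7.44 in untreated WT and 10.5 and 11.1 in WT with LPS. Its rank score rose by 0.88 (SE 0.21, adjusted p = 0.016, limma) in WT, which ended without untreated replicate 1 (0.0521), untreated replicate 2 (0.123) or LPS replicate 2 (0.115). In KO the values were 7.05 and 9.13 untreated and 8.53 and 8.0 with LPS, which overlap. Around this gene 3 weak regions were gained with LPS in WT, at 4.39 and 4.74, at 4.44 and 4.59, and at 4.14 and 4.51. They lay 7.1 kb before the span, beside an end of H2-Eb2 and 18.7 kb outside the span; 1 KO library with LPS held the last of them. One more region, 19.9 kb outside the span, was gained with LPS in KO at 5.84 and 5.82, and all 4 WT libraries held it too. A region 0.4 kb from an end of Btnl2 was lost with LPS in KO, from 5.05 and 4.98.

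Cd74 encodes the invariant chain, which escorts class II molecules and blocks their groove until they reach the endosome. Region chr18:60795078-60795471, 8.5 kb before the span, stood at 5.76 and 7.1 in untreated WT and 7.97 and 8.86 in WT with LPS. Its rank score rose by 0.79 (SE 0.22, adjusted p = 0.0336, limma) in WT, which ended without untreated replicate 1 (0.265), LPS replicate 1 (0.0568) or LPS replicate 2 (0.212). In KO the values overlapped, at 5.48 and 6.02 untreated and 6.25 and 5.23 with LPS. By percentile they did not, at 11.6 and 13.9 untreated and 21.5 and 15.5 with LPS, with no call.

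In KO the calls near Cd74 were at other regions, though no region differed between the genotypes in its LPS response past the threshold. Region chr18:60790609-60790971, 13.1 kb before the span, stood at 4.68 and 5.35 in untreated KO and 6.82 and 8.32 in KO with LPS, against 4.77 and 3.73 and then 4.45 and 4.01 in WT. Its rank score rose by 1.20 with LPS in KO (SE 0.26, adjusted p = 0.00756, limma), which ended without untreated replicate 1 (0.0592) or LPS replicate 2 (0.0661). Inside the gene, region chr18:60805618-60806147 stood at 8.06 and 6.61 in untreated KO and 3.76 and 4.51 in KO with LPS, and at 7.66 and 7.4 and then 4.98 and 5.91 in WT. The rank score fell by 1.22 in KO (SE 0.28, adjusted p = 0.0109, limma), ending when ranked by -log10 p (0.0628) and without untreated replicate 1 (0.0731) or LPS replicate 1 (0.0914). In each genotype both LPS values of this region were below both untreated values.

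Weak regions around Cd74 came and went. One 3.7 kb inside the span was lost with LPS in both genotypes, from 3.09 and 3.07 in WT and 3.07 and 3.81 in KO. Gained with LPS in WT were a region 1.8 kb before the span, at 3.87 and 3.76, and one 2.8 kb inside it, at 3.05 and 2.69; 1 KO library with LPS held each of them. The region at the gene's end described above was gained with LPS in KO and lost in untreated KO against untreated WT.

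The class I machinery beyond Nlrc5 had no region past the threshold in the rank test under LPS in either genotype. Few were tested: 2 for Tap1, 2 for Psmb8, 3 for Psmb9 and 5 for B2m. Of all common regions 15.3% were called in WT and 18.9% in KO. B2m had 1 weak region gained with LPS in WT, 1.0 kb inside the gene at 2.64 and 2.76, and 1 lost, 1.0 kb beyond its far end, from 3.19 and 2.85. In KO it had 2 gained, 1.6 kb before the gene at 2.83 and 3.27 and at an end of Trim69 at 4.1 and 4.13. WT LPS replicate 2 held the first too, at 2.81. All 4 WT libraries held the second, at 6.76 and 5.01 untreated and 5.26 and 5.22 with LPS, and it was lost in untreated KO against WT. Psmb8, a catalytic subunit of the immunoproteasome, had a region between it and Tap2 that was gained with LPS in WT, at 3.57 and 3.62. Psmb9, another such subunit, had a region inside H2-DMb1 lost in WT, from 4.73 and 4.13. Another, 11.1 kb outside its span on the side away from its promoter, was lost in KO, from 6.5 and 7.68. The second Tap1 region, 0.5 kb past the gene on the side of Psmb8, stood at 12.9 and 10.9 in untreated WT, 8.75 and 8.23 in WT with LPS, 11.1 and 11.4 in untreated KO, and 8.56 and 8.23 in KO with LPS. In both genotypes its LPS values were below its untreated values without a call in the rank test.

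Over all members, the share of regions gained or lost with LPS was below that of the data set as a whole. In WT 12 of 128 regions (9.38%) were gained with LPS against 10.1% of all regions, and 5 (3.91%) were lost against 6.02%. In KO 6 (4.69%) were gained against 8.03%, and 6 were lost against 5.56%. Regions gained in both genotypes numbered 2 and lost in both 2, beside 4.85% and 1.79% of all regions. Single libraries moved these shares. Without KO LPS replicate 2, 20 (15.6%) were gained in KO against 12.9% of all regions, and without untreated KO replicate 1, 14 (10.9%) were lost against 9.91%, so both were then above the background. Without untreated WT replicate 1, 16 (12.5%) were gained in WT against 11.7%, and 10 (7.81%) were lost against 9.98%.

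In the rank test the calls leaned toward higher ranks. With LPS in WT 6 of the 58 tested regions (10.3%) were higher and 2 (3.45%) lower, beside 7.85% and 7.43% of all common regions. In KO 7 (12.1%) were higher and 3 (5.17%) lower, beside 9.76% and 9.18%. Called in either direction were 13.8% of member regions in WT against 15.3% of all, and 17.2% in KO against 18.9%. Median shifts were 0.04 in WT and 0.01 in KO, against -0.01 and -0.02 over all common regions. The tested regions were 36 of class II genes and 22 of the class I machinery, so the counts by class have unequal bases. Of the regions called in WT 6 belonged to class II genes (5 higher, 1 lower) and 2 to the class I machinery (1 higher, 1 lower), and in KO 8 (6 higher, 2 lower) and 2 (1 higher, 1 lower). Ranked by -log10 p, 10 (17.2%) were higher in WT against 11.2% of all, and 0 were lower against 9.9%. In KO 11 (19.0%) were then higher against 11.6%, and 0 lower against 10.5%. The lower calls thus rest on fold enrichment, and these shares were not tested.

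**Figure D4:**
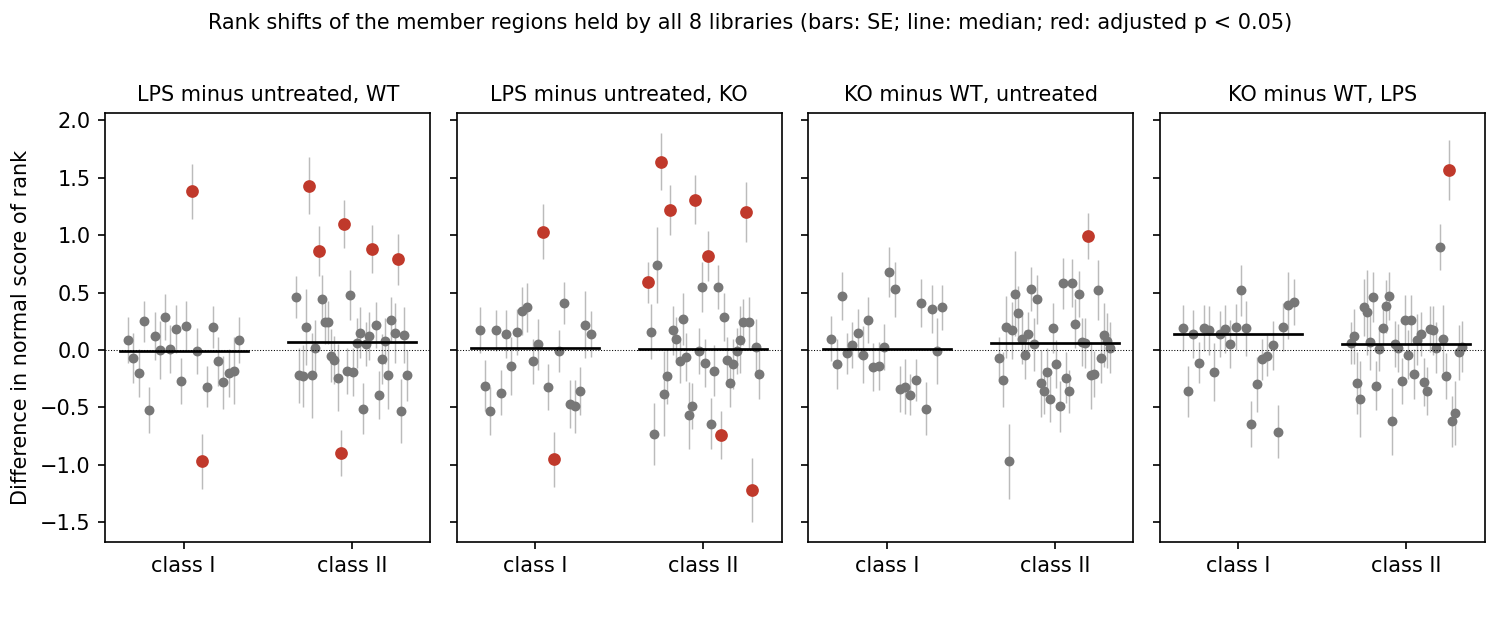
Difference in rank score for each of the 58 member regions held by all 8 libraries (points, with SE bars; black line, median), for class I and class II regions in 4 comparisons. Red points passed an adjusted p of 0.05 in limma; there are 8 in LPS against untreated WT, 10 in KO, and 1 in each comparison of KO with WT.

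Fewer of these regions were called in KO libraries than in WT libraries, as was true of the lists as a whole. Untreated WT libraries held 95 and 95 of the 128 regions, WT with LPS 106 and 99, untreated KO 72 and 84, and KO with LPS 86 and 74. Every WT library was above every KO library. The mean in KO was 0.821 times that in WT untreated and 0.78 times with LPS, while the ratios of list length were 0.844 and 0.826. For the class I machinery the ratios were 0.756 and 0.804, and for the class II genes 0.875 and 0.761. The class I counts were 42 and 44, then 49 and 43 in WT, and 29 and 36, then 40 and 34 in KO, untreated first. The class II counts were 53 and 51, 57 and 56, 43 and 48, and 46 and 40.

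**Figure D5:**
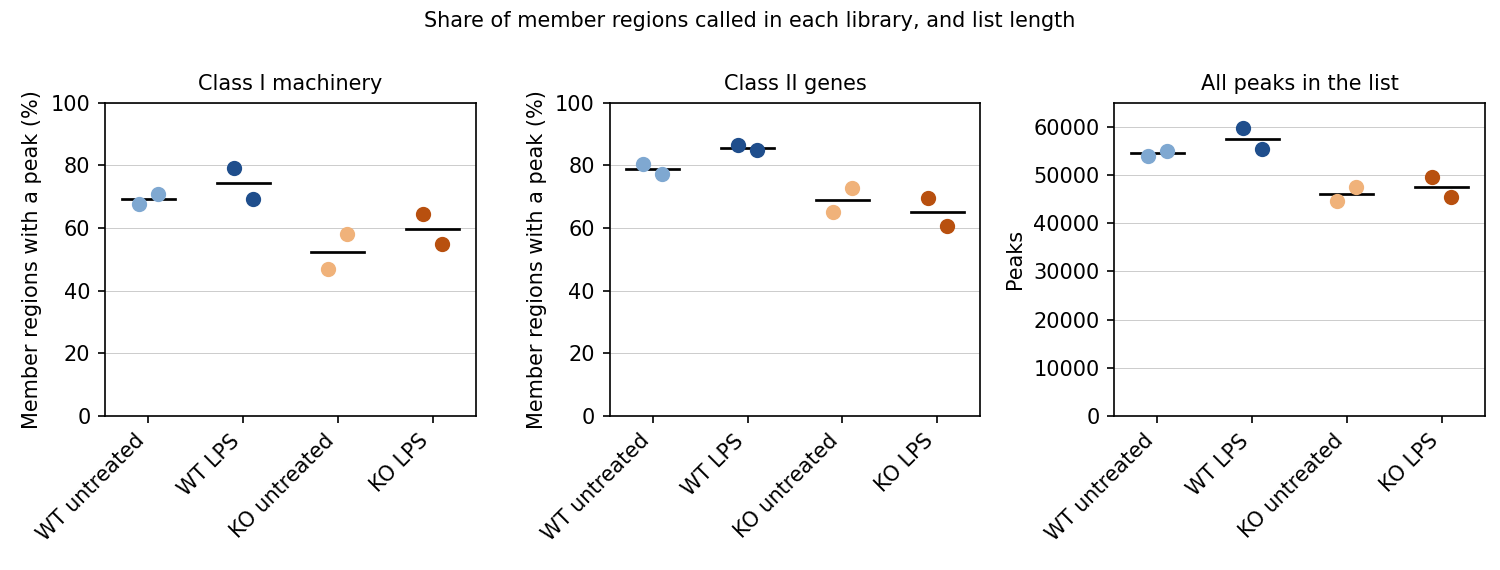
Percentage of the 62 class I and 66 class II regions with a peak in each library, and the number of peaks in the whole list (points are libraries, bars group means, axes from 0). The WT libraries lie above the KO libraries in the class II panel and in the list length, and the lowest class I value among WT libraries is 67.7% against a highest of 64.5% in KO.

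Regions called in WT and missing from KO had fold enrichments of at most 8.72 in untreated WT and 6.86 in WT with LPS. In untreated cells 7 regions (5.47%) were lost in KO against 6.22% of all regions, and 1 (0.781%) was gained against 0.735%. After LPS 12 (9.38%) were lost against 6.94%, and 0 were gained against 0.711%. With lists cut to equal numbers of peaks the losses were 4 untreated and 7 after LPS, beside 2.08% and 2.23% of all regions. That is 3.12% and 5.47% of the members. Without untreated KO replicate 2, 15 (11.7%) were lost untreated against 10.4% of all, and without KO LPS replicate 1, 24 (18.8%) were lost after LPS against 12.7%.

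Lost after LPS were 7 class II regions: 2 around Ciita, 2 around Cd74, 2 around H2-Eb1 and 1 at an end of H2-Ob. That at H2-Ob, chr17:34238682-34238994, was in all 4 WT libraries, at 3.51, 3.46, 3.62 and 3.7, and in no KO library, and was the only member region lost under both treatments. The Cd74 losses lay 46.5 kb before the span, at 5.07 and 5.17 in WT with LPS, and 12.4 kb past it, at 3.81 and 4.09. The 5 class I regions lost after LPS were 2 around Psmb9, 2 around B2m and 1 near Cpne2 in the Nlrc5 window. The 2 around Psmb9 were nearest to H2-DMa and H2-DMb1, genes of the class II pathway. The one at 6.86 was the Psmb9 region 11.1 kb outside the span. In untreated cells the losses were 2 around Psmb9, 2 around B2m and 1 each around H2-Ab1, H2-Eb1 and Cd74. The one at 8.72 lay 1.3 kb outside Psmb9, on the side away from its promoter.

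Among the 58 common regions the genotypes hardly differed in rank. In untreated cells 1 region was higher in KO and 0 lower, beside 0.404% and 0.426% of all, and 8 higher (13.8%) and 4 lower (6.9%) had an unadjusted p under 0.05 in limma, against 7.88% and 8.27% of all. It was chr18:60766807-60767534, in the Cd74 window but nearest to the ribosomal protein gene Rps14, at 5.69 and 6.17 in WT and 8.13 and 9.05 in KO, and at 5.56 and 5.73 and then 7.48 and 7.81 with LPS. Every KO library was above every WT library. Its rank score was 0.99 higher in untreated KO (SE 0.20, adjusted p = 0.0453, limma), which ended in 7 of 8 fits without 1 library, at up to 0.234.

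After LPS 1 region was higher in KO and 0 lower, beside 0.0904% and 0.132% of all, with 4 higher (6.9%) and 3 lower (5.17%) at an unadjusted p under 0.05, against 8.0% and 8.24% of all. It was the region 13.1 kb before Cd74 given above, 1.57 higher in KO (SE 0.26, adjusted p = 0.0467, limma). That call ended in every fit without 1 library (0.0532 to 0.196), when ranked by -log10 p (0.0802) and on the log2 scale (0.0606). The LPS response itself did not pass the threshold for a genotype difference at any region: the interaction was called at 0.0% of all 30960 regions and at 0 of 58 member regions by limma. The lowest adjusted p was 0.302 over all and 0.551 among the members. At an unadjusted p under 0.05 there were 2259 regions in all and 4 members, all 4 of class II genes.

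The other genes of the pathway were counted through the regions nearest to them. The shares of all regions to set beside these counts are 10.1% gained and 6.02% lost with LPS in WT, 8.03% and 5.56% in KO, 0.735% gained and 6.22% lost in untreated KO against WT, and 0.711% and 6.94% after LPS. In the rank test they are 7.85% higher and 7.43% lower in WT and 9.76% and 9.18% in KO. The class II list held 19 genes of class II accessory molecules, endosomal proteases and promoter-binding factors, all with a region and 102 regions in all, of which 21 are member regions above. With LPS 10 of the 102 were gained and 3 lost in WT, and 6 gained and 9 lost in KO. KO against WT lost 4 and gained 1 untreated, and lost 9 and gained 0 after LPS. Of its 52 common regions, 2 were higher and 1 lower with LPS in WT, and 3 higher and 2 lower in KO. The class I list held 20 genes of heavy chains, transporter and loading-complex proteins, all with a region and 54 in all, 4 of them member regions. There, 6 were gained and 3 lost with LPS in WT, 3 gained and 2 lost in KO, and 2 and 4 lost in KO against WT untreated and after LPS with 0 gained. Of its 28 common regions, 2 were higher and 1 lower in WT and 3 higher and 1 lower in KO.

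Summed over the 4 comparisons, the most gained or lost calls, 13, lay around Marchf1, which encodes a ubiquitin ligase that removes class II molecules from the surface. A region can count in more than 1 comparison. Of its 20 regions, 3 were gained and 1 lost with LPS in WT, and 3 gained and 3 lost in KO. Nfya, a subunit of the NF-Y factor that binds the Y box, had 4 regions, with 1 gained and 1 lost in WT and 2 lost in KO. H2-Eb2, a class II beta chain gene whose regions overlap the H2-Eb1 window, had 2 of 5 gained in WT and 1 gained in KO. Cd1d1, which presents lipids to NKT cells, had 2 of 7 gained in WT and 1 gained in KO. Untreated KO against WT lost 1 region each at Marchf1 and H2-Eb2. After LPS it lost 2 at Marchf1 and 1 each at Nfya, H2-Eb2 and Cd1d1.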

How the data were processed

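The authors deposited 1 ATAC-seq peak list per library, each replicate called alone. BWA 0.7.12, MACS2 and mm10 are named in the submitters' processing notes, and the filter behind the lists is not given in the sources used here. Each deposited peak has a fold enrichment (a ratio to local background), a -log10 p, a -log10 q and a score from the authors' peak caller. Read totals are not in these lists, so sequencing depth is unknown; lists held 44504 to 59750 peaks, with a lowest -log10 p of 7.35 to 7.93.

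Here, peaks overlapping by at least 1 bp were merged, and a region took the highest fold of its peaks in a library. Normal scores of ranks over the 30960 common regions were fitted with limma 3.58.1 (R 4.3.3) on all 8 libraries, with group means, Benjamini-Hochberg adjustment and a threshold of 0.05. The method was run on simulated data with independent noise and known shifts, which cannot show how it behaves with deviations shared between these libraries. With 2 libraries against 2 no exact two-sided p can go below 0.333, so gained and lost calls have no p. Gene spans, promoters and motif shares came from RefSeq (GRCm38.p6, the mm10 assembly); 6 of 10 members had a promoter entry.

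Members and lists were chosen with earlier results of these data known. Regions named were those gained, lost or past the threshold, each member's strongest region and those at its ends. Up to 4 pathway genes were named by their number of gained and lost calls over the 4 comparisons. Sample titles were followed where LPS source names also say untreated. Alternatives were -log10 p of at least 20, equal list lengths, 50% cover, 20 kb windows, ranking by -log10 p, centred log2 fold, a replicate block, and leaving out each library. One B cell marker of the planned list is not reported here.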

Additional observations from a re-analysis of the deposited data

Results flagged for a closer look

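At 1 member region every LPS library ranked above both untreated ones in WT and below both in KO. It lies at chr17:34291601-34291957, 3.9 kb outside H2-Aa on the promoter side. Its fold enrichments were 7.55 and 7.83 in untreated WT, 8.05 and 7.07 in WT with LPS, 8.29 and 10.3 in untreated KO, and 5.77 and 6.52 in KO with LPS. The LPS effect on the rank score was 0.15 in WT and -0.64 in KO, neither past the threshold, and the effects differed by -0.79 (unadjusted p = 0.0246, adjusted p = 0.614 by limma). Percentiles among the common regions were 23.8 and 26.5 untreated and 33.1 and 27.4 with LPS in WT, and 40.6 and 52.1 untreated and 16.5 and 31.2 with LPS in KO. It is 1 of 4 member regions with an unadjusted p under 0.05 for this difference, none past the threshold.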

How the results depend on the processing

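Of the 20 calls for single regions, 5 stayed past the threshold in all 8 fits that left out 1 library. With centred log2 fold 19 stayed, and with the replicate block 17. Ranked by -log10 p, 14 stayed, 5 ended, and the H2-Ab1 region chr17:34248770-34249132 with LPS in WT reversed to 0.29 (adjusted p = 0.276). Peaks with a -log10 p of at least 20 left 13 of the 20 regions to test, all still called.

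For calls, equal list lengths gave 3 regions lost with LPS in WT (2.34% against 6.28% of all regions). For untreated KO against WT they gave 2 gained (1.56% against 1.9%) and 4 lost (3.12% against 2.08%). After LPS, 7 were lost in KO against WT (5.47% against 2.23%). A -log10 p of at least 20 gave 11 lost in untreated KO (8.59% against 5.15%), and 50% cover gave 10 gained with LPS in KO (7.81% against 8.56%). With 20 kb windows, which leave 84 regions, 6 were lost in KO after LPS, beside 6.94% of all regions. Leaving out 1 library asks for a peak in 1 library fewer, which also raised the shares of all regions, given in brackets. With LPS it gave 13 to 17 gained (11.7 to 15.6%) and 6 to 10 lost (7.67 to 9.98%) in WT. In KO it gave 6 to 20 gained (9.26 to 12.9%) and 7 to 14 lost (6.81 to 9.91%). Untreated KO against WT had 1 to 2 gained (1.28 to 2.84%) and 9 to 15 lost (9.04 to 11.6%). After LPS these were 1 to 3 (1.2 to 2.76%) and 15 to 24 (9.25 to 14.5%). The mean number of regions per library was 39.6 for class I (33 at a -log10 p of at least 20, 25.4 in 20 kb windows) and 49.2 for class II (41.2 and 30.8).

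In the rank test, leaving out 1 library gave 1244 to 2784 regions higher and 752 to 2550 lower with LPS in WT, with 2 to 7 and 0 to 3 members, and 1747 to 2860 higher and 1657 to 2701 lower in KO, with 3 to 6 and 1 to 4 members. Ranked by -log10 p, members with LPS were 10 higher and 0 lower in WT and 11 higher and 0 lower in KO; at a -log10 p of at least 20, 4 were higher in KO.

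For untreated KO against WT, all regions called higher numbered 125 and lower 132. Ranked by -log10 p they were 200 and 85, with the replicate block 83 and 84, and without 1 library 0 to 104 and 0 to 127. The 1 member called higher became 0 with the block and 0 to 1 without 1 library. After LPS, 28 were higher and 41 lower; the lower ones became 19 ranked by -log10 p and 65 at a -log10 p of at least 20. On the log2 scale, with the block and without any 1 library there were 0 higher and 0 lower. The 1 member called higher was 0 under each of these settings. The cause of these changes was not tested.

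Same-numbered libraries showed no shared deviation: their deviations from their group means correlated at -0.0769 to 0.0317. This cannot show whether same-numbered libraries shared an animal or a batch. With the block, calls were lost at the Ciita region inside Tvp23a with LPS in KO (adjusted p = 0.0557) and at both Cd74-window regions called between genotypes (0.0561 and 0.0708). Peak lists hold no read depth, so a missing peak cannot be told from a weak one.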

Other observations

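One further region drew attention after its values were seen. It lies at chr8:94564309-94564872 in the Nlrc5 window, 37.3 kb outside the span, and inside Cpne2, which encodes a calcium-dependent membrane-binding copine. Its fold enrichments were 7.32 and 8.43 in untreated WT, 12.4 and 13.2 in WT with LPS, and 11.6 and 9.77 in KO with LPS. In untreated KO it was called in 1 library, at 4.65. It was therefore outside the rank test and is given as a description.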
